A study of Mus musculus with 27 samples.

Results

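The genes that write, copy, remove and read DNA methylation were followed through the development of the mouse retina. The set holds 8 genes, Dnmt1, Dnmt3a, Dnmt3b, Uhrf1, Tet1, Tet2, Tet3 and Mbd2, of the 38168 annotated features in the expression table. Members were found by their symbol in the table, each matched exactly 1 entry, and all 8 passed the filter on low values. Whole retinas came from wild type C57BL/6J mice, which carried no transgene or deletion and received no treatment, at embryonic days 14 and 17 (E14 and E17, 3 libraries each) and at postnatal days 1, 6, 15, 28 and 60 (P1, 4 libraries; P6, 3; P15, 4; P28, 4; P60, 6). The labels state 3 retinas for each of the 27 libraries, whereas the methods describe larger pools at the early ages and, at P60, pools beside single mice without naming which library was which. Retinas were from mixed sexes up to P1 and from males later. Sex therefore cannot be told apart from age in the step from P1 to P6. The same holds for any comparison of embryonic with later postnatal ages.

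In mammalian DNA, methyl groups are placed on cytosines, mostly where a cytosine is followed by a guanine (a CpG). Dnmt3a and Dnmt3b are the de novo methyltransferases, which place methyl groups on unmethylated DNA. Dnmt1 is the maintenance methyltransferase, which copies the marks to the new strand after replication, and Uhrf1 recognises singly methylated CpG sites behind the replication fork and recruits Dnmt1 to them. The Tet enzymes (Tet1, Tet2 and Tet3) oxidise methylcytosine, a first step in its removal, and Mbd2 binds methylated CpG sites and recruits the NuRD repressor complex. In the retina, progenitor cells divide through embryonic life and into the first postnatal days, after which neurons and Müller glia mature without dividing.

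Expression was measured as CPM (the reads of a gene scaled to the reads of its library). Libraries held 7076646 to 11330762 reads, with medians between 7251429 at P6 and 9779737 at E17, so that 3 reads, the floor used here, correspond to 0.265 to 0.424 CPM. These limits cover counting error only. The labelled tissue was checked against 6 retina markers, whose summed level ran from 1463 to 1469 CPM at E14 and from 16465 to 20243 CPM at P60. Retinal pigment epithelium markers summed to 4.41 to 31.1 CPM, lens markers (3 of 5 listed) to 1.55 to 7.36 CPM, blood markers (3 of 4 listed) to 10.4 to 44.3 CPM and microglia markers to 9.66 to 24.6 CPM over all libraries. At P60, replicates 1 and 2 stood apart from the other 4 libraries: the chi-square of read counts per degree of freedom was 3.29 between them and 8.36 to 21.5 between either and the others, against 4.62 to 9.31 among the others, a range that overlaps at replicate 6. The comparisons of single genes that rest on P60 were also run without replicates 1 and 2, and other P60 values include all 6. By the same measure, P15 replicate 4 stood at 5.38 to 8.22 from the other P15 libraries, which lay at 1.72 to 2.43 among themselves. For E17 replicate 2 the values were 6.64 and 7.37, against 2.50 between the remaining E17 libraries.

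Between the embryonic ages (E14 and E17) and the mature ages (P15, P28 and P60), the set moved in both directions. Uhrf1, Dnmt3b, Dnmt1 and Tet1 were lower in the mature retina and Dnmt3a, Tet2 and Tet3 were higher, each at an adjusted p under 0.05, and Mbd2 was not called. The 7 calls held without P60 replicates 1 and 2. The test was limma on log2(CPM + 1) over all 31760 features that passed the filter, with age means weighted equally on each side. Among all features, 40.4% were lower and 35.0% higher by the same rule, so a count of 7 called of 8 lies near the share in the whole table. With a further requirement of at least a 2-fold change, Uhrf1, Dnmt3b and Dnmt1 were lower (16.1% of all features) and no member was higher by limma (14.9%; 3 higher without the fold), whereas edgeR put Dnmt3a past it. Mature and embryonic libraries were fully separate for Dnmt1, Dnmt3b and Uhrf1, which were lower (23.0% of features), and for Dnmt3a, Tet2 and Tet3, which were higher (17.4%). The median log2 difference was -0.35 over the 8 genes and -0.06 over all features tested. All 8 genes varied over the 7 ages by limma's F test, as did 83.0% of features. In whole tissue, fewer cells of a type and less RNA per cell cannot be told apart.

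**Figure D1:**
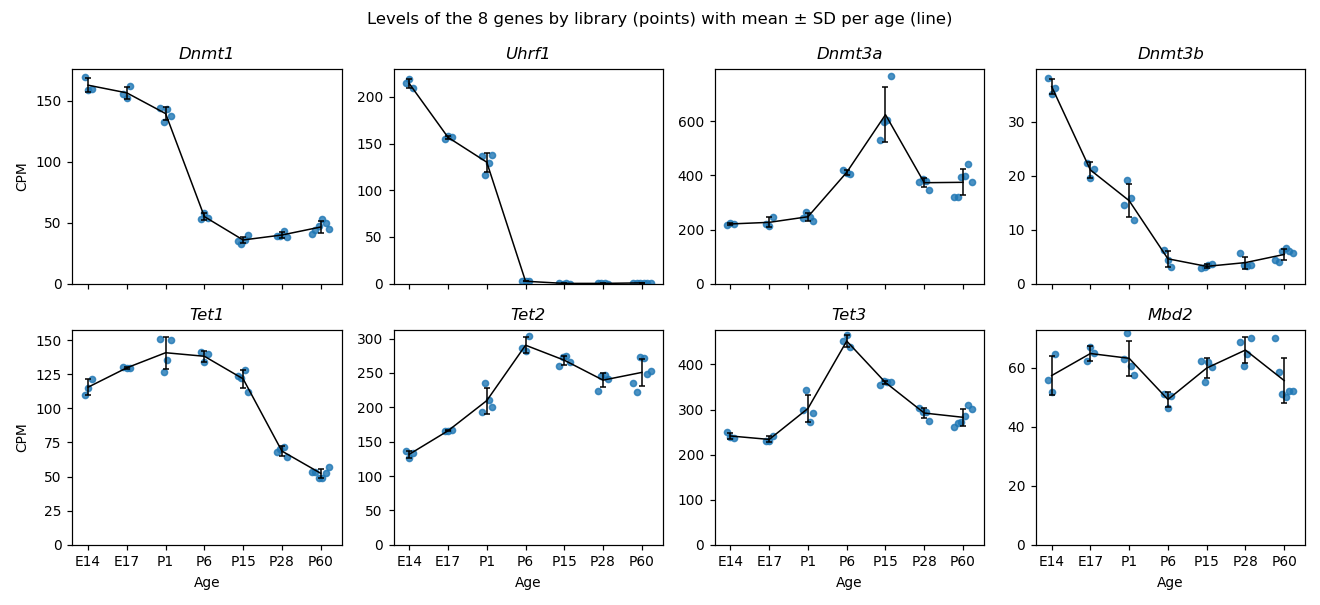
Expression of the 8 genes in CPM (vertical axes, linear, each starting at 0) at 7 ages (horizontal axes); points are libraries, lines join the means and bars are SD. Dnmt1, Uhrf1 and Dnmt3b fell between P1 and P6, Dnmt3a was highest at P15, Tet3 was highest at P6, and Tet1 fell after P15.

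Dnmt1 (Gene ID 13433; GRCm38 chromosome 9, 20907209 to 20959888, minus strand) copies methylation at replication. Its level was 169.6, 159 and 160.0 CPM at E14, 155, 152 and 162 CPM at E17, and 144, 133, 143 and 138 CPM at P1. At P6 it was 52.7, 58.1 and 54.2 CPM, and at P15 35.3, 32.8, 35.5 and 39.6 CPM. All libraries up to P1 were above all later ones, and the P6 libraries lay between P1 and P15 without overlap. Levels at P28 were 38.9, 39.5, 43.0 and 38.2 CPM, and at P60 40.7, 43.7, 46.9, 53.4, 49.6 and 44.5 CPM. The mean at P15 was 22.0% of that at E14, and every mature library held at least 32.8 CPM. The log2 change was -1.33 (adjusted p 2.7e-14, limma) between P1 and P6, -0.61 between P6 and P15 (adjusted p 1.1e-06), and -1.96 ± 0.05 (SE) from embryonic to mature retina (adjusted p 7.8e-25). From P28 to P60 the value of 0.21 narrowly missed the threshold (adjusted p 0.0501) and, without P60 replicates 1 and 2, was 0.28 (adjusted p 0.0022).

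Uhrf1 (Gene ID 18140; GRCm38 chromosome 17, 56303321 to 56323486, plus strand), the partner that brings Dnmt1 to new DNA, fell far further. It measured 214, 219 and 209 CPM at E14, 155, 158 and 157 CPM at E17, and 137, 116, 129 and 138 CPM at P1. The 3 libraries at P6 held 2.54, 2.81 and 2.34 CPM. Between P1 and P6 the level per read total was therefore 50.3 times lower, with a 95% counting interval of 39.1 to 65.9 from 4345 and 61 reads. Later levels lay near the floor: 0.268, 0.132, 0.608 and 0 CPM at P15, which are 0 to 5 reads, and 0.266, 0.421, 0.271 and 0.126 CPM at P28, which are 1 to 3 reads. At P60 the libraries held 0.656, 0.563, 0.753, 0.994, 0.961 and 0.980 CPM, or 4 to 9 reads. No P60 library overlapped a P28 library, although no mature library held more than 9 reads. The embryonic libraries together held 11028 reads and the mature ones 55, a ratio of 361.5 after scaling by read totals (95% counting interval 277.5 to 480.2). On the log2(CPM + 1) scale, which understates changes of low values, the difference was -7.03 ± 0.10 (adjusted p 4.8e-33). The steps from P1 to P6 (-5.20, adjusted p 7.3e-23) and from P6 to P15 (-1.53, adjusted p 1.4e-09) were called. So was the step from P28 to P60 (0.51, adjusted p 0.012), which missed the threshold with only these ages in the fit (adjusted p 0.17) or with a replicate block (0.070) and held without P60 replicates 1 and 2 (adjusted p 6.1e-04).

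Promoter sequence is shown for Uhrf1, Dnmt1 and Dnmt3b, the members at least 2-fold lower in the mature retina. E2F factors, which switch on genes of DNA replication in dividing cells, bind a short motif near the start of many such genes. The letters TTTCGCGC and TTTGGCGC were searched on both strands in RefSeq windows of 250 bases before to 50 bases after each transcript start (GRCm38.p6). These motifs were chosen after the expression values were known. They occurred in 0.813% of 32851 windows and for 0.929% of genes in the genome, in 2 of 12 member windows, those of 2 of the 7 members found in that set, Uhrf1 and Dnmt1, and in 2 of 7 genes of the proliferation list that had a window. In Uhrf1 the match lay 185 bases before one of its starts, and the 250 bases before that start (chr17:56304063-56304312, plus strand) held 30 CpG dinucleotides. Dnmt3b, which also fell, had no match in its window, and the 250 bases before its start (chr2:153649199-153649448, plus strand) held 21 CpG dinucleotides. Dnmt1 had matches 219 bases before (chr9:20952824-20952853, minus strand) and 33 bases after (chr9:20952574-20952601, minus strand) one of its starts, both in annotated untranslated sequence. Sequences are written 5′ to 3′ on the strand of the gene, with the matched letters in capitals.
Uhrf1, 250 bases before the start: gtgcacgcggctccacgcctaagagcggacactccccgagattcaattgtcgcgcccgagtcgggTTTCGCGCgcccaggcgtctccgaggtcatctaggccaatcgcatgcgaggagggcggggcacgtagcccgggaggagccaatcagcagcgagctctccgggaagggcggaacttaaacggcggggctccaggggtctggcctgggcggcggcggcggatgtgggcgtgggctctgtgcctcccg
Dnmt1, around the match before the start: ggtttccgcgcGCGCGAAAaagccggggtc
Dnmt1, around the match after the start: gcggggcagcgTTTGGCGCgggctgtgc
Dnmt3b, 250 bases before the start: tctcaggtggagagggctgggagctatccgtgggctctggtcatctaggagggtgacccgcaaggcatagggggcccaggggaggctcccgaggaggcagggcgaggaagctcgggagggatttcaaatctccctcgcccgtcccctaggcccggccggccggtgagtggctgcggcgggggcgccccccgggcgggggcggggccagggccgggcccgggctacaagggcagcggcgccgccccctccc
The first Dnmt1 match reads GCGCGAAA because it lies on the opposite strand. Over all windows the median was 7 CpG dinucleotides, and over the 12 windows of the 7 members it was 26. Both motifs contain a CpG, so the share of matches over all windows is not a matched expectation for the members. A match describes letters in a window and was not tested for binding.

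Dnmt3b (Gene ID 13436; GRCm38 chromosome 2, 153649450 to 153687730, plus strand), a de novo methyltransferase of early development, was already lower at E17. It measured 38.1, 35.2 and 36.3 CPM at E14 and 22.4, 19.5 and 21.3 CPM at E17, with no overlap between these ages. Levels were 14.6, 19.2, 15.9 and 11.8 CPM at P1 and 6.22, 4.43 and 3.17 CPM at P6. Later libraries held 2.81, 3.03, 3.41 and 3.57 CPM (P15), 5.60, 3.37, 3.25 and 3.39 CPM (P28) and 4.33, 3.94, 6.02, 6.52, 6.04 and 5.63 CPM (P60). At E17 the mean was 57.7% of that at E14, whereas the mean of Dnmt1 was 96.1% and that of Uhrf1 73.1%, also without overlap (Uhrf1 adjusted p 0.077 by limma and 0.0031 by edgeR). The log2 change from E14 to E17 was -0.77 (adjusted p 0.010), and it missed the threshold without E17 replicate 2 (-0.72, adjusted p 0.054). From P1 to P6 it was -1.56 (adjusted p 4.7e-08), from P6 to P15 -0.38 (adjusted p 0.13; 0.035 without P6 replicate 3), and from embryonic to mature retina -2.51 ± 0.12 (adjusted p 2.6e-18). The value from P28 to P60, 0.40, was not called (adjusted p 0.096), but was 0.55 without P60 replicates 1 and 2 (adjusted p 0.0079). Dnmt3bos lies on the opposite strand within the locus, and whether reads were counted by strand is not stated, so that reads of the pair cannot be told apart.

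Genes of cell division fell at the P1 to P6 step, as did Dnmt1, Uhrf1 and Dnmt3b. Dnmt3b had also fallen earlier: at P1 it was at 42.1% of its E14 mean. The summed proliferation genes were then at 94.2%, and the lowest of them, Rrm2, was at 55.4%. All 8 proliferation genes examined (Mki67, Top2a, Cdk1, Ccnb1, Ccna2, Mcm2, Mcm5 and Rrm2) were lower in the mature retina, with a median log2 difference of -5.35. Their summed level was 3527 to 3610 CPM at E14, 3366 to 3606 at E17 and 3166 to 3526 at P1, followed by 104 to 137 CPM for P6, 28.6 to 30.8 for P15, 27.9 to 33.4 for P28 and 38.8 to 58.2 for P60. Up to P1 most of this summed level was Mki67, with means of 2156 of 3574 CPM at E14. At E17 Mki67 was at 106% of its E14 level and Rrm2 at 58.6%. The other proliferation genes lay between 77.2% (Mcm5) and 89.3% (Top2a) at that age. Rrm2 (the higher of its 2 entries) was at 0 in all P15 libraries and Cdk1 in all P28 libraries. The log2 difference was -10.13 for Mki67, which marks dividing cells, -8.97 for Top2a, a topoisomerase of replication and mitosis, and -5.99 for Ccnb1, a mitotic cyclin. The part of this change in the levels of Dnmt1, Uhrf1 and Dnmt3b was not tested. At P15 the summed proliferation level was 0.828% of that at E14, Uhrf1 was at 0.118%, Dnmt3b at 8.77% and Dnmt1 at 22.0%. Most of that sum at P15 was Ccna2, a cyclin, with 23.2 of 29.6 CPM and 12.6% of its E14 level. Of the 8 proliferation genes, Mki67 (0.0449%), Top2a (0.0558%), Ccnb1 (0.0776%), Cdk1 (0.103%) and Rrm2 (at 0) lay below the share of Uhrf1, so that Uhrf1 lay within their range.

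**Figure D2:**
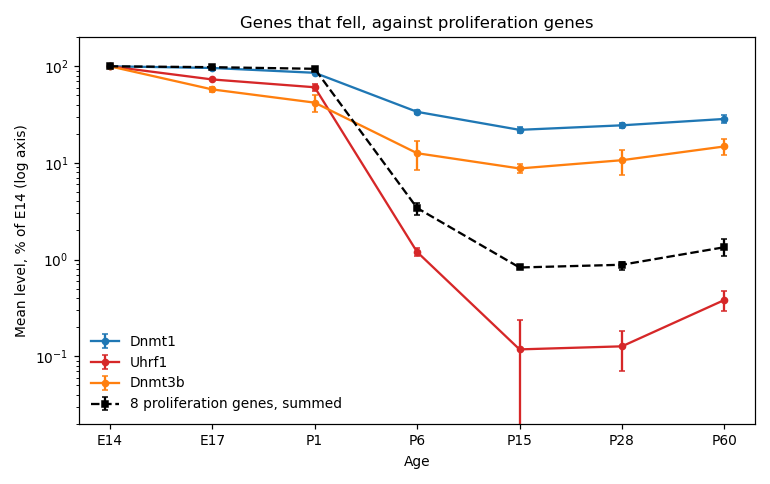
Mean level as a percentage of the mean at E14 (vertical axis, log scale) for Dnmt1, Uhrf1, Dnmt3b and the summed 8 proliferation genes at 7 ages; bars are SD for the single genes and the range over libraries for the sum, and the lower bar of Uhrf1 at P15 runs off the axis because it reaches below 0. The P1 to P6 step was the steepest in all 4 lines, and Dnmt1 levelled off highest, at 22.0% at P15. Up to P1 most of the sum was Mki67.

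Dnmt3a (Gene ID 13435; GRCm38 chromosome 12, 3806007 to 3914443, plus strand), the other de novo methyltransferase and the main one in postnatal neurons, changed in the opposite direction to Dnmt3b. It measured 215, 224 and 222 CPM at E14, 219.9, 212 and 247 CPM at E17, and 243, 266, 248 and 232 CPM at P1, and neighbouring ages overlapped, whereas E14 and P1 did not. Levels rose to 420.2, 410.1 and 403 CPM at P6 and to 529, 597, 605 and 767 CPM at P15, the age with the highest levels, where replicate 4 was well above the others. They were 377, 387, 380.1 and 347 CPM at P28, and 319, 318, 394, 397, 440.4 and 377 CPM at P60. Every P15 library was above every library of any other age. The steps were 0.73 from P1 to P6 (adjusted p 2.5e-07), 0.59 from P6 to P15 (adjusted p 1.6e-05) and -0.73 from P15 to P28 (adjusted p 5.3e-06). The mature mean exceeded the embryonic one by 0.98 ± 0.06 on the log2 scale (adjusted p 3.2e-15), just short of 2-fold, and by 1.09 when edgeR was run on the recovered reads. P60 and P28 had means of 374 ± 47.8 (SD, n = 6) and 373 ± 17.5 CPM (SD, n = 4), and the interval of their log2 difference ran from -0.17 to 0.17; without P60 replicates 1 and 2, the lowest of that age, the difference was 0.11, which was not called either. The antisense gene Dnmt3aos, with a mean of 1.94 CPM, overlaps the locus.

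The Tet enzymes did not move as a group. Tet1 (Gene ID 52463; GRCm38 chromosome 10, 62804570 to 62908996, minus strand) stayed within 109.5 to 151 CPM in every library from E14 to P15, and then fell. It measured 123.9, 122, 128 and 112 CPM at P15, 67.8, 70.5, 72.0 and 64.4 CPM at P28, and 53.0, 53.7, 48.8, 49.2, 52.5 and 57.2 CPM at P60, and these 3 ages did not overlap. The steps were -0.81 from P15 to P28 (adjusted p 4.3e-09) and -0.38 from P28 to P60 (adjusted p 0.0011; 0.11 with only these ages in the fit), and the latter held without P60 replicates 1 and 2. At the step from P1 to P6, where 7 of the 8 genes were called, the log2 change of Tet1 was -0.02, with an interval from -0.18 to 0.13. The embryonic to mature difference of -0.68 ± 0.05 (adjusted p 5.4e-14) averages over this late decline, and the P15 libraries overlapped the embryonic ones.

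Tet2 (Gene ID 214133; GRCm38 chromosome 3, 133463679 to 133545139, minus strand) rose at each of the first 3 steps. It measured 136, 126 and 133 CPM at E14, 165, 166 and 167 CPM at E17, 193, 236, 210.1 and 200.4 CPM at P1, and 286, 282 and 304 CPM at P6, without overlap between neighbouring ages. The steps were 0.33 (adjusted p 0.0028), 0.33 (adjusted p 0.0018) and 0.47 (adjusted p 2.7e-06) on the log2 scale. No later step was called, and P15 libraries held 260.2 to 275 CPM, P28 libraries 224 to 247 CPM and P60 libraries 223 to 274 CPM. The mature level exceeded the embryonic one by 0.77 ± 0.05 (adjusted p 6.2e-16). Gm42567 overlaps the Tet2 locus on the opposite strand.

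Tet3 (Gene ID 194388; GRCm38 chromosome 6, 83362373 to 83459084, minus strand) rose to a peak at P6 and declined again. Its levels were 249.9, 238 and 236 CPM at E14, 230.3, 229 and 241 CPM at E17, and 299.8, 344, 273 and 293 CPM at P1. At P6 they were 452, 465 and 439 CPM, above every library of any other age. The range was then 354 to 363 CPM at P15, 275 to 304 CPM in P28 retinas and 261 to 309 CPM in those of P60. The gene rose from E17 to P1 (0.37, adjusted p 3.2e-04) and from P1 to P6 (0.58, adjusted p 2.0e-08), and fell from P6 to P15 (-0.33, adjusted p 3.1e-04) and from P15 to P28 (-0.30, adjusted p 0.0045). The difference between mature and embryonic retina, 0.38 ± 0.04 (adjusted p 2.8e-09), stands beside a mean at P6 of 187% of that at E14. Mir6374, 5430434F05Rik and B230319C09Rik overlap the Tet3 locus, 1 of them on the opposite strand, and an overlapping feature had a mean of 17.02 CPM.

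Mbd2 (Gene ID 17191; GRCm38 chromosome 18, 70568189 to 70626131, plus strand), the methyl-CpG reader of the set, differed least between embryonic and mature retina. It measured 55.7, 51.6 and 64.6 CPM at E14, 62.2, 67.1 and 65.1 CPM at E17, 62.9, 71.6, 60.5 and 57.6 CPM at P1, and 51.0, 46.3 and 50.3 CPM at P6. Levels at P15 were 62.4, 55.0, 61.8 and 60.2 CPM, at P28 68.6, 60.5, 64.7 and 70.0 CPM, and at P60 69.9, 58.6, 50.9, 50.04, 52.1 and 52.2 CPM. The mature and embryonic libraries overlapped, and the log2 difference was -0.02 with an interval from -0.15 to 0.12 (adjusted p 0.84). A dip at P6 was called, with -0.35 from P1 to P6 (adjusted p 0.0068) and 0.28 from P6 to P15 (adjusted p 0.036). The return was the less stable step: it missed the threshold when any P6 library or P15 replicate 1, 3 or 4 was left out, with adjusted p values from 0.054 to 0.15. From P28 to P60 the value was -0.25 (adjusted p 0.054) and, without P60 replicates 1 and 2, the highest Mbd2 libraries of that age, -0.35 (adjusted p 5.5e-04).

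Of the 6 steps between neighbouring ages, the one from P1 to P6 had the most calls among the members. From E14 to E17, Tet2 was higher (7.56% of all features were higher) and Dnmt3b lower (3.02%). From E17 to P1, Tet2 and Tet3 were higher (5.77% of features) and none was lower (3.43%; 1 gene at an unadjusted p under 0.05 by limma, 3 by edgeR, none of them after adjustment). At the next step, from P1 to P6, Dnmt3a, Tet2 and Tet3 were higher (18.0%) and Dnmt1, Uhrf1, Dnmt3b and Mbd2 lower (20.4%). Thus 7 of 8 genes were called at this step. From P6 to P15, Dnmt3a and Mbd2 were higher (14.4%) and Dnmt1, Uhrf1 and Tet3 lower (19.0%). From P15 to P28, none was higher (1.14%; also none at an unadjusted p under 0.05 by limma or edgeR) and Dnmt3a, Tet1 and Tet3 were lower (1.58%), so that 3 of 8 genes were called at the step at which the fewest features changed. From P28 to P60, Uhrf1 was higher (4.80%) and Tet1 lower (8.11%). At this last step the scaling affected the background, with 37.2% of called features higher as deposited, 51.6% after median-of-ratios scaling and 60.8% with edgeR.

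**Figure D3:**
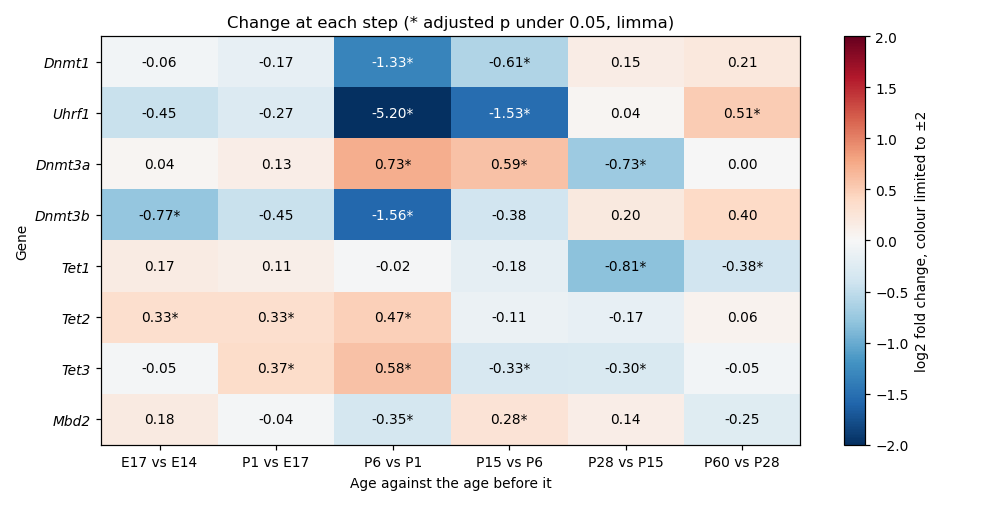
Log2 fold change of each gene (rows) at each step between neighbouring ages (columns), on log2(CPM + 1); red is higher at the later age, blue lower, the colour is limited to 2 in either direction, and an asterisk marks an adjusted p under 0.05 by limma. The P6 against P1 column has 7 asterisks, and Tet1, without one there, has its own at the last 2 steps.

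Ratios between members within a library, in which library scaling nearly cancels, were compared between the 6 embryonic and 14 mature libraries on log2(CPM + 1). These are ratios of reads and not of molecules, since the genes differ in length, and only their change is read. All 5 ratios differed by a two-sided exact permutation test over 38760 relabellings, each at p = 2.6e-05. This is the smallest value the test can give and also the value after adjustment over the 5 ratios. Single libraries were relabelled although those of an age share that age, so p reflects the spread between libraries and not between ages. For Dnmt1 to Dnmt3a and Dnmt3b to Dnmt3a, genes already fully separate in opposite directions, a small p was fixed beforehand. The other ratios also pair genes whose unequal differences were already known. These were -7.03 for Uhrf1 and -1.96 for Dnmt1, and -0.68 for Tet1, 0.77 for Tet2 and 0.38 for Tet3. The p-values of the ratios therefore restate the single-gene changes and add no separate evidence. The share of other gene pairs that reach this value was not computed. The ratio of maintenance to de novo enzyme, Dnmt1 to Dnmt3a, went from -0.48 ± 0.08 (SD, n = 6) to -3.35 ± 0.50 (SD, n = 14). It was lowest at P15, at -4.08, and -2.98 at P60. Dnmt3b to Dnmt3a, both de novo enzymes, went from -2.96 ± 0.45 to -6.37 ± 0.60. Uhrf1 to Dnmt1, the recruiter to its enzyme, went from 0.20 ± 0.22 to -4.85 ± 0.23, and was 0.39 at E14, -0.10 at P1, -3.97 at P6 and -4.90 at P15.

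Changes among the erasers were smaller. Tet1 to Tet3 went from -0.95 ± 0.14 to -2.07 ± 0.37 and reached -2.41 at P60. Tet2 to Tet3 rose from -0.68 ± 0.21 to -0.28 ± 0.14, the one ratio of the 5 that was higher in the mature retina, although E17 libraries (-0.53 to -0.46) and P15 libraries (-0.44 to -0.39) lay close together.

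**Figure D4:**
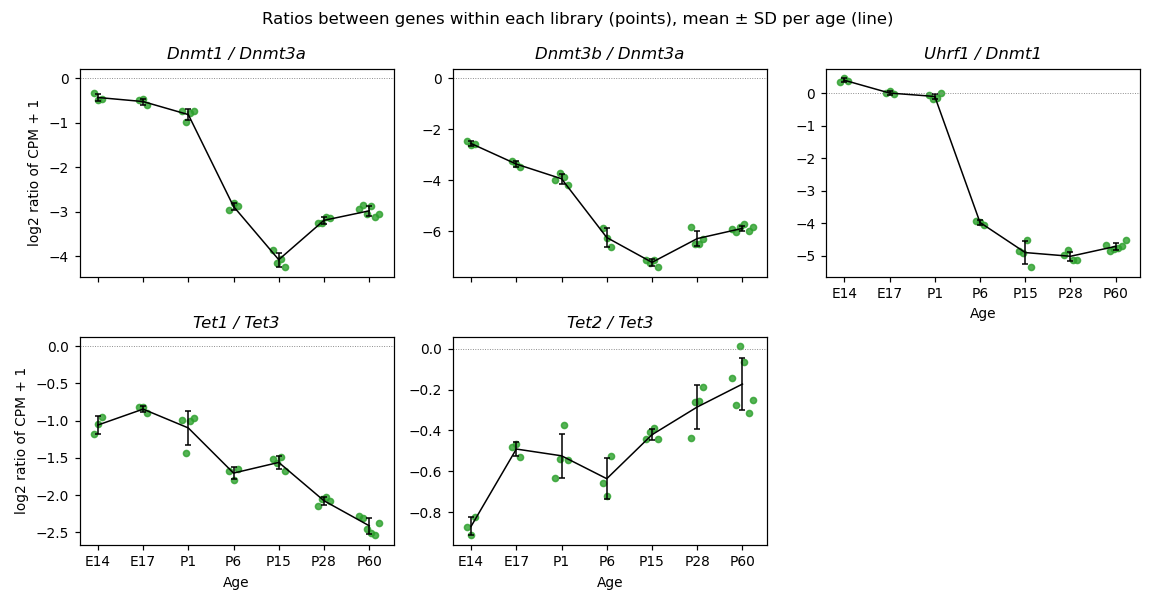
Log2 ratios of CPM + 1 between pairs of genes in each library (vertical axes, which differ in range) at 7 ages; points are libraries, lines join means, bars are SD and dotted lines mark a ratio of 1. Dnmt1 to Dnmt3a, Dnmt3b to Dnmt3a and Uhrf1 to Dnmt1 dropped between P1 and P6, and Tet2 to Tet3 was highest at P60 (mean -0.17).

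Levels were compared between genes only per kilobase of exon (CPM per kb, with exon lengths of GENCODE M21, which need not be the annotation used for counting). At E14 the order was Uhrf1 (50.3 ± 1.195, SD, n = 3), Dnmt1 (22.1 ± 0.80), Mbd2 (17.8 ± 2.07), Tet3 (14.5 ± 0.45), Dnmt3a (13.3 ± 0.27), Tet2 (7.81 ± 0.31), Tet1 (7.47 ± 0.39) and Dnmt3b (7.16 ± 0.28). Neighbours among the last 3 differed by less than the sum of their SDs. At P60 the order was Dnmt3a (22.5 ± 2.87, SD, n = 6), Mbd2 (17.3 ± 2.37), Tet3 (16.9 ± 1.14), Tet2 (14.9 ± 1.18), Dnmt1 (6.30 ± 0.62), Tet1 (3.39 ± 0.20), Dnmt3b (1.06 ± 0.20) and Uhrf1 (0.192 ± 0.04). Neighbours among the first 4 differed by less than the sum of their SDs. Uhrf1 thus went from first to last, and Dnmt3a from the fifth place to the first. Summed over the 8 genes, the level was 1168 to 1189 CPM at E14, highest at P15 (1368 to 1611 CPM) and 971 to 1159.5 CPM at P60.

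Other genes of DNA methylation were counted from lists chosen by role, against the same background of 40.4% lower and 35.0% higher. Of 6 partners of maintenance methylation, all 6 were lower in the mature retina, with a median log2 difference of -2.63. Cdca7 and Hells, which together form a remodeller that opens chromatin for methylation, differed by -5.01 and -3.65 on the log2 scale, and Lig1, the ligase that joins new DNA fragments and is bound by Uhrf1, by -2.66. Between P1 and P6 alone, all 6 fell, with a median of -2.11. Of the keepers of imprinted methylation, Zfp57, which binds methylated imprints, differed by -3.19 and Trim28, its corepressor (the higher of its 2 entries), by -2.01, both called lower. Dnmt3l, the cofactor of the de novo enzymes, matched no entry by its symbol and was therefore not analysed here. Zfp57 was at 63.8% of its E14 level at P6 and 13.3% at P15.

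In the cycle that supplies the methyl donor, Mat2a, which makes S-adenosylmethionine, was higher (0.60), and Mat2b, its regulatory subunit (-0.44), and Ahcy, which clears the spent donor (-1.26; 5.76 ± 0.26 CPM at E14, n = 3), were lower. Among 10 partners of the Tet enzymes and of base excision, 6 were lower, 3 higher and 1 not called, with a median of -0.68. The largest differences were those of Apex1, an endonuclease of base excision repair (-2.08), Cxxc5, a CpG binding protein related to Tet partners (-2.07), and Smug1, a glycosylase that removes uracil and oxidised pyrimidines (2.01). Smug1 went from 16.0 ± 0.42 CPM at E14 (n = 3) to 102 ± 15.3 CPM at P60 (SD, n = 6), against the direction of most of its list.

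Of 5 other genes listed as readers of methylated CpG or as their relatives, 2 were higher, 2 lower and 1 not called, with a median of 0.16. Zbtb4, a zinc finger protein that binds methylated DNA, had the largest difference of all genes in these lists in the upward direction (3.23 ± 0.05, adjusted p 1.6e-32), from 17.2 ± 0.84 CPM at E14 (n = 3) to 248 ± 8.53 CPM at P60 (SD, n = 6). Mbd3, a relative of Mbd2 that forms a separate NuRD complex, was lower (-1.44), as was Zbtb33, another zinc finger reader (-1.08). Of 9 subunits of the NuRD complex that Mbd2 recruits, 8 were lower and 1 higher, with a median of -0.96. Mta1, Hdac2, a histone deacetylase, and Rbbp7, a histone binding subunit, had log2 differences of -1.65, -1.44 and -1.27. Mta2, which takes the place of Mta1 in some complexes, was the exception (0.37). Transcripts of these 9 genes summed to 1464 to 1500.0 CPM at E14 and 707 to 913 CPM at P60. Chd4 was the largest part, with means of 582 of 1480 CPM at E14. Such a sum is not scaled by gene length and does not measure the complex itself. Mbd2 went from 57.3 ± 6.66 (SD, n = 3) to 55.6 ± 7.62 CPM (SD, n = 6) between these ages.

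**Figure D5:**
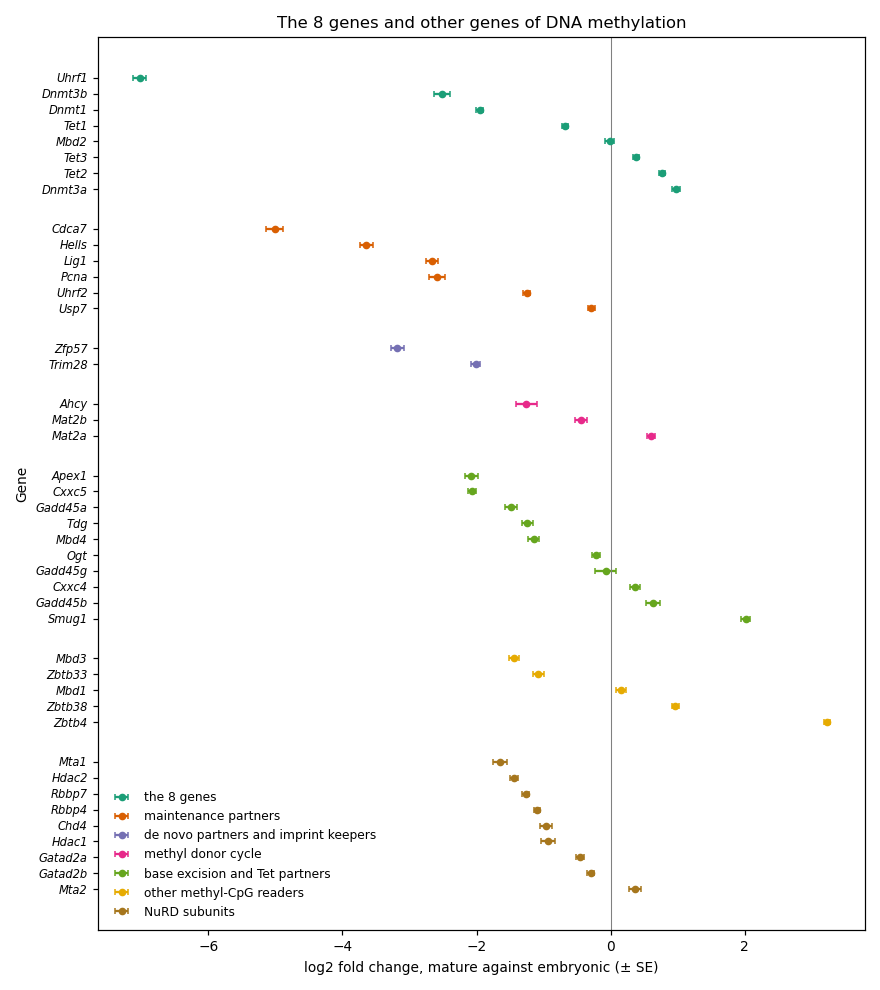
Log2 fold change of mature (P15, P28, P60) against embryonic (E14, E17) retina on log2(CPM + 1) for the 8 genes and 35 other genes of DNA methylation, grouped by role (colours); points are limma estimates and bars are SE. All maintenance partners lie left of 0, and the readers and Tet partners lie on both sides.

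The features whose profiles were most like each member were found among 10992 features with a Gene ID and a mean of at least 10 CPM, by Pearson's r of log2(CPM + 1) over the 27 libraries. These values describe shared age profiles in the same libraries. Uhrf1 was closest to Ccnb1 (r = 0.9967), Melk and Dlgap5, genes of mitosis, and Dnmt1 to Rbl1 (r = 0.9927), Rrm1 and Hist1h2ai. Dnmt3b was closest to Cand2 (0.9751), Grb10 and Slc12a7, and Dnmt3a to Kirrel (0.96), Dhdh and Xrcc6. Tet1 was closest to Bdh1 (0.9367), Tmod2 and Hmgn2, Tet2 to Bin1 (0.9764), Samd7 and Lgmn, and Tet3 to Ndst1 (0.9668), Riok3 and Ncoa2. Mbd2 had no such close match, with Fgfr1op2 the nearest (0.7707), followed by 2810455D13Rik and Gm9938. Among the members, r was 0.993 for Uhrf1 with Dnmt1, 0.949 for Dnmt3b with Dnmt1, 0.763 for Tet3 with Tet2, and -0.868 for Dnmt3a with Dnmt1.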

How the data were processed

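Total RNA of whole retinas was sequenced by the authors from libraries made with the SMARTer total RNA kit and aligned to GRCm38 (mm10) with STAR. They deposited 1 table of CPM values per feature and library. Its annotation and its use of strand are not given in the sources used here. Every deposited CPM value up to 200 reads was a whole multiple of 1 read within 0.1 reads (100%), which gave the reads per library, and the summed reads of the listed features are the depths used. No column belonged to other samples.

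Libraries were grouped by age from the labels. Of the 38168 features, the 31760 that reached 1 CPM in 3 or more libraries were tested on log2(CPM + 1) by limma 3.58.1 (R 4.3.3) in a single fit of the 27 libraries, with age as the only factor and the variance trended on the mean. Two-sided p-values were adjusted by Benjamini-Hochberg across these features, and a gene was called at an adjusted p under 0.05. Intervals are 95%. Where nothing says that libraries came from separate animals, p-values measure the spread between libraries, which may be technical. The read counts of every replicate pair differed by more than sampling noise (chi-square per degree of freedom at least 1.72). Ratios, counting intervals and promoter matches used Python 3.11.15 with scipy 1.17.1, and genes were placed with GENCODE M21.

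Members and gene lists were chosen with earlier results of these data known. All 8 members are named, with the 3 genes of largest absolute change in each list, and the 3 features most like each member. Mta2, the other proliferation genes and the genes at 0 were named besides, after their values were seen. A gene of the reader list and a ratio that used it are not reported here. Alternatives were a pseudocount of 0.1, a filter at a mean of 10 CPM, no filter, summed entries of a symbol, median-of-ratios scaling, edgeR 4.0.16 on the recovered reads (24062 of 31760 features called for mature against embryonic), fits of the compared ages only, a replicate block and each library left out. Also run were edgeR without E14 replicate 1 and the ratios without P60. In E14 replicate 1, 1 read was 0.10003 CPM, so near a round number that the check of whole reads says little there. Leaving out P60 replicates 1 and 2 together was added after seeing the data. The fits were tested on simulated data.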

Additional observations from a re-analysis of the deposited data

Results flagged for a closer look

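Dnmt3b at P28 was flagged because 1 library lay far from the others of its age: replicate 1 held 5.60 CPM, the nearest of the other 3 held 3.39 CPM, and the gap was 0.938 of the range of the group. Of 32 groups examined among the members, this was the 1 flagged, and chance flags about 1 in 20. Without this library, Dnmt3b stayed on the same side of the threshold in both comparisons with P28 and in the comparison of mature with embryonic retina.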

How the results depend on the processing

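No called result reversed its direction under 11 other settings or 27 fits that each left out 1 library. The count of 7 members called between mature and embryonic retina, the 7 called from P1 to P6 and the 3 called from P15 to P28 were the same under every setting run, and no ratio changed its side of the threshold. Differences that were not called, such as that of Mbd2 between mature and embryonic retina (-0.02 by limma, 0.09 by edgeR), did change sign. The 5 members called at P15 against P6 became 4 to 6. Counts at the smaller steps moved further. For P60 against P28 (2 called), 4 were called with a filter at a mean of 10 CPM, 1 with a replicate block, 0 with only the compared ages in the fit (limma; 4 at an unadjusted p under 0.05, and 3 called by edgeR over all ages) and 5 without P60 replicates 1 and 2. For E17 against E14 and for P1 against E17 (2 called each), 4 were called with only the compared ages in the fit. Leaving out 1 library gave 1 to 2 called for E17 against E14 and 2 to 5 for P60 against P28, the 5 without P60 replicate 1 or replicate 2 and the 1 without E17 replicate 2. The cause was not tested. Of 56 single-gene comparisons, 13 crossed the threshold under at least 1 setting. Among these, Uhrf1 from E14 to E17 (-0.45, adjusted p 0.077 by limma) was called by edgeR (adjusted p 0.0031) and with only the compared ages (1.3e-07). Replicate numbers did not pair the libraries: deviations of same-numbered libraries correlated with a mean r of -0.0014 (-0.13 to 0.17 over 69 pairs), and 7 of 27 libraries correlated best with their own number. With the replicate block, Uhrf1 from P28 to P60 was no longer called (adjusted p 0.070), and no other call of a member changed. The median of all features for mature against embryonic shifted by 0.11 with edgeR and by 0.07 with median-of-ratios scaling, less than each difference called for the 7 members. At P60 against P28, 1524 features were higher and 2576 lower as deposited, against 2100 and 1966 after median-of-ratios scaling and 2118 and 1363 with edgeR. Depth limits Uhrf1 after P6, where libraries held at most 9 reads.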
